A study of Homo sapiens with 16 samples.

Results

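Collagens, laminins, integrins and a few other matrix genes were described across H1 cells, a human embryonic stem cell line in long use, cultured with and without 2-deoxyglucose (2DG) in 4 media. Members were the genes whose symbols follow the naming of collagen chains (COL), laminin chains (LAM) or integrin subunits (ITG), together with FN1, SPARC, HSPG2, MMP9 and ADAM19. They numbered 68 of the 17738 genes listed: 36 collagens, 10 laminins, 16 integrins, 5 other matrix genes and ITGB3BP, which carries an integrin-like symbol but encodes a centromere protein. VTN, which the rule also names, was not analysed here. Polyadenylated RNA was sequenced from 16 libraries in 8 groups of 2, all harvested after 24 h. The groups were E7+Activin A+2DG, E7+Activin A, E7+NODAL+2DG, E7+NODAL, E7+TGFb+2DG, E7+TGFb, E7+2DG and E7, all from wild-type cells. E7 is the E8 culture medium with its TGFb left out, so every group except those given TGFb had lost the ligand in which the cells were maintained. TGFb was added at 1.74 ng/mL, Activin A and NODAL at 100 ng/mL and 2DG at 3 mM. The labels do not say whether replicates were separate cultures, so p-values measure only the spread between these libraries, and 1 cell line was used.

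Matrix proteins form the substrate to which pluripotent cells attach. Laminins are trimers of an alpha, a beta and a gamma chain and build the basement membrane with collagen IV and the proteoglycan perlecan (HSPG2), while fibrillar collagens, collagen VI and fibronectin (FN1) build other matrices. Integrins are alpha-beta pairs that bind them: alpha6, alpha3 and alpha7 subunits pair with beta1 to bind laminin, and alpha5 and alphaV subunits bind fibronectin and other proteins with an arginine-glycine-aspartate motif. MMP9 is a secreted gelatinase and ADAM19 a membrane-bound protease. TGFb, Activin A and NODAL act through SMAD2 and SMAD3, which regulate many matrix genes in other cell types, and 2DG is a glucose analog that blocks glycolysis and also disturbs the N-glycosylation on which many secreted proteins depend.

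The values are read counts divided by a size factor per library, called normalised reads below, and 14600479 to 17630329 reads per library underlay them. All 8 markers of undifferentiated stem cells were listed, with a summed level of 132300 to 164525 normalised reads over the libraries, and the table lists only genes with at least 1 read in all 16 of them. Because these are bulk samples, fewer cells of a type and less RNA per cell cannot be told apart. A pair of libraries stood apart: in E7 replicate 2 and E7+Activin A replicate 1, genes with long exons were low, with a Spearman's rho between a library's deviations and exon length across genes of -0.377 and -0.384. In the other libraries rho lay between -0.183 and 0.255. Members are long, with a median exon length of 8140 bases against 4574 over all genes tested, and their median deviation was -0.37 on the log2 scale in E7 replicate 2, the lowest of the 16 libraries. The libraries of E7+Activin A differed by 57.8 times the counting variance, against 1.61 to 15.8 times in the other groups.

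**Figure D1:**
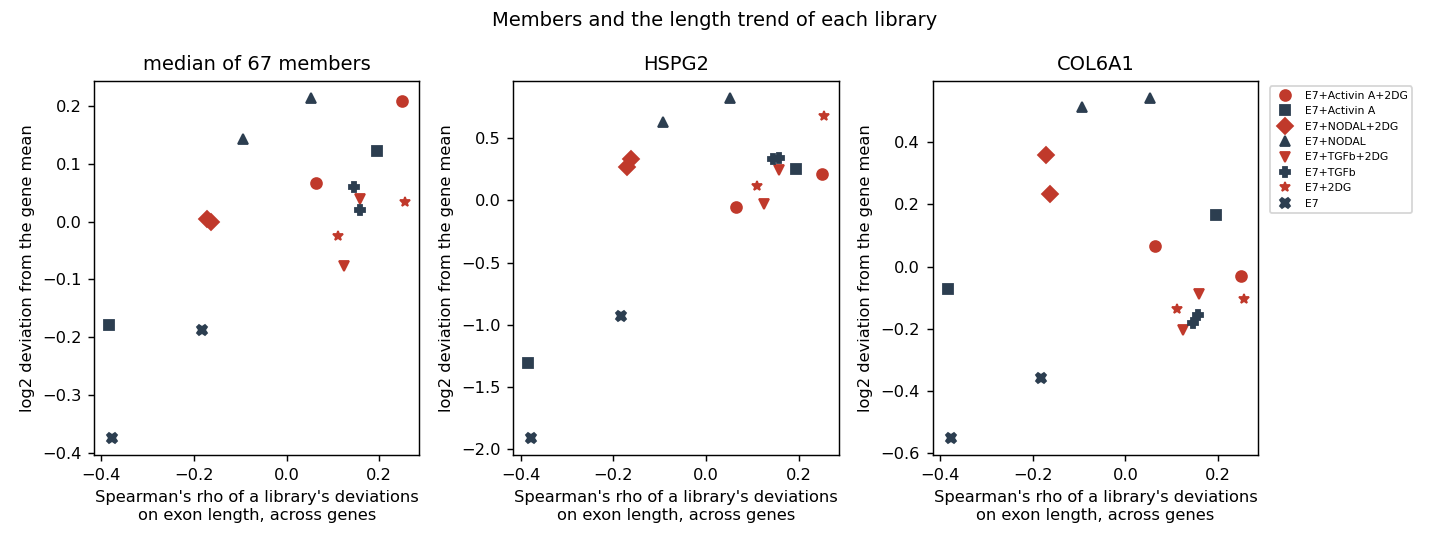
Each point is a library; the horizontal axis is Spearman's rho between its log2 deviations and exon length across genes, and the vertical axis the log2 deviation of the median member (left), HSPG2 (centre) or COL6A1 (right). The E7 libraries lie low in all 3 panels, and E7+Activin A replicate 1 lies low for HSPG2, a gene with 18104 bases of exons, but near the middle for COL6A1, with 5343.

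Levels between genes were compared as normalised reads per kilobase of exon. The most abundant member was ITGB1, the beta subunit shared by most of these integrins, whose group means ran from 1473 to 1880 per kilobase. SPARC, a collagen-binding glycoprotein, followed with 919 to 1860, ITGB5 with 707 to 1562 and COL6A1 with 558 to 1101. ITGB1 had the highest mean in each of the 8 groups, but SPARC reached it within the spread of libraries in E7+Activin A+2DG (1860 for SPARC, against 1880 for ITGB1) and in E7+Activin A (1713, against 1779). SPARC and ITGB5 changed places: SPARC was the higher in E7 (919, against 853) and ITGB5 in E7+NODAL+2DG (1007, against 981), whereas every group mean of ITGB1 was above every one of COL6A1. Among laminin chains LAMC1 (median of the group means 501 per kilobase) and LAMB1 (369) were highest, followed by LAMA1 (157) and LAMA5 (78.0). Thus alpha1 was the most abundant alpha chain, beta1 the most abundant beta and gamma1 the most abundant gamma. Collagen IV was represented mainly by COL4A1 (201) and COL4A2 (130), followed by COL4A5 (49.4) and COL4A6 (32.0), with COL4A3 and COL4A4 at 4.24 and 7.01. COL1A1, the main chain of type I collagen in fibroblasts, was at 25.2. Over all libraries, 19 members averaged at least 1000 normalised reads, 29 averaged 100 to 1000 and 20 averaged under 100. All but COL10A1, at 2.11 to 11.8 normalised reads, reached 10 in at least 2 libraries and were tested, in a limma model fitted to all 16714 genes that did so. Call means a Benjamini-Hochberg adjusted p under 0.05 over those genes, and log2 fold changes are of normalised reads plus 1, with the standard error (SE) of the model.

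**Figure D2:**
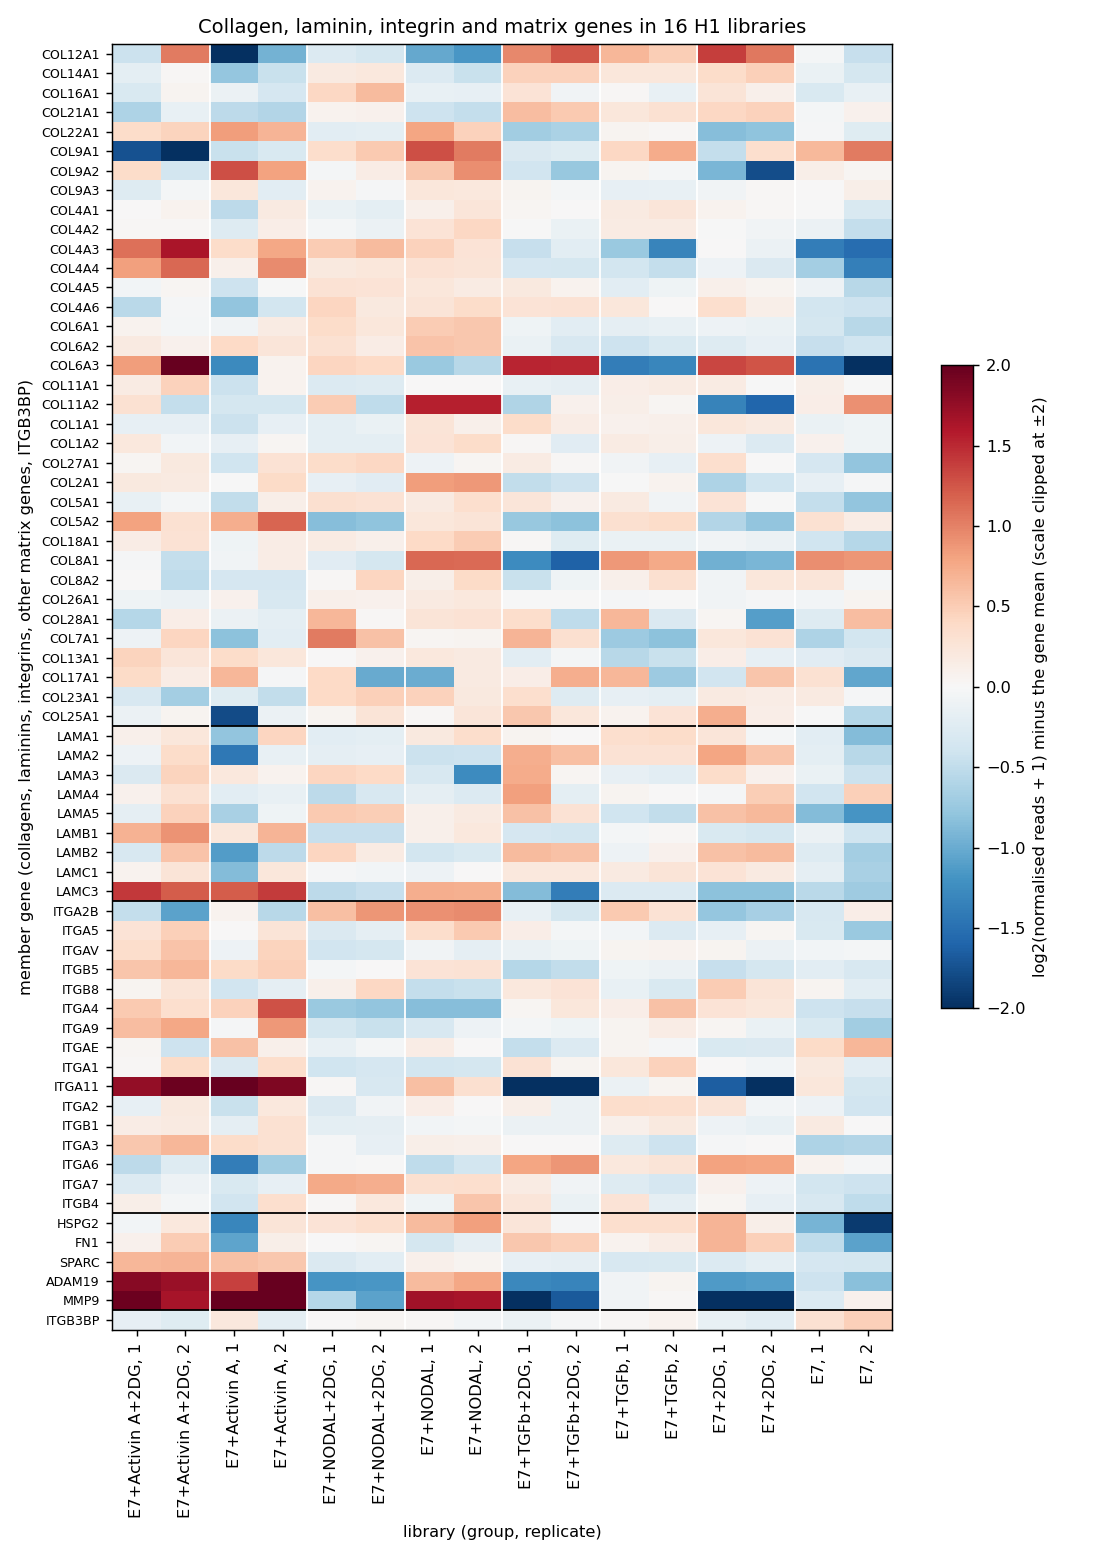
Log2 normalised reads of 66 of the 67 members tested, less each gene's mean over 16 libraries, with libraries in columns and genes in rows ordered by class and role. ADAM19, MMP9, LAMC3 and ITGA11 are red in the 4 Activin A libraries, COL6A3 is red in 2DG libraries, and E7 replicate 2 and E7+Activin A replicate 1 are blue for many long genes.

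Activin A raised matrix proteases, a laminin gamma chain, beta5 and alpha3 integrins and SPARC, and lowered the laminin receptor subunit ITGA6. In E7+Activin A against E7, 19 members rose and 4 fell, or 34.3% of 67, where 10% of all genes tested were called, 5.28% higher and 4.74% lower. Without E7 replicate 2, 12 of these 23 calls were lost. With 2DG in both media, 15 members rose and 5 fell, where 7.52% of all genes were called, 4.27% higher and 3.25% lower. The Activin A, NODAL and TGFb comparisons without 2DG share the E7 libraries, and those with 2DG share the E7+2DG libraries, so their values are set side by side only.

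ADAM19 had 4571 and 7720 normalised reads in E7+Activin A libraries, against 1322 and 996 in E7. It rose with a log2 fold change 2.37 (adjusted p = 3.87e-06, SE 0.18), and both Activin A libraries were above both E7 libraries although they differed widely from each other. With 2DG the contrast was cleaner: 6265 and 5854 in E7+Activin A+2DG, against 802 and 824 in E7+2DG. The log2 fold change was then 2.90 (SE 0.18, adjusted p = 2.91e-07), and replicates lay close together. MMP9 had 403 and 288 normalised reads in E7+Activin A, against 53.6 and 69.0 in E7, and 254 and 205 in E7+Activin A+2DG, against 12.3 and 7.61 in E7+2DG. Its log2 fold changes were 2.47 (SE 0.35, adjusted p = 0.00043) without 2DG and 4.42 (SE 0.35, adjusted p = 2.14e-06) with it, and in neither pair did the libraries overlap. MMP9 shares its locus with SLC12A5-AS1 and ADAM19 with CYFIP2. The strand setting of the counting is not stated, and reads of such overlapping genes cannot be told apart.

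LAMC3, a gamma chain of less common laminins, had 1213 and 1391 normalised reads in E7+Activin A, against 363 and 321 in E7. The log2 fold change was 1.93 (SE 0.15, adjusted p = 3.87e-06) and, with 2DG in both media, 2.13 (SE 0.15, adjusted p = 5.8e-07). Both Activin A libraries were far above both E7 libraries. LAMB1, the beta1 chain, also rose, by 0.70 without 2DG (SE 0.13, adjusted p = 0.00406), a call lost without E7 replicate 2, and by 1.12 with it (SE 0.13, adjusted p = 8.69e-05). SPARC was tightly measured, at 8407 and 8148 normalised reads in E7+Activin A, against 4453 and 4429 in E7, with log2 fold change 0.90 (adjusted p = 5.49e-06, SE 0.07). With 2DG in both media it was 0.91 (SE 0.07, adjusted p = 2.66e-06).

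Integrin subunits moved in both directions. ITGB5, which pairs with alphaV, had 8606 and 9125 normalised reads in E7+Activin A, against 5699 and 5296 in E7, with log2 fold change 0.69 (adjusted p = 0.00012, SE 0.08). ITGA3, a laminin receptor subunit, had 761 and 722 in E7+Activin A, against 383 and 391 in E7, with log2 fold change 0.94 (adjusted p = 4.13e-05, SE 0.10). ITGA6, another laminin receptor subunit, had 947 and 1520 in E7+Activin A, against 2577 and 2426 in E7, and fell by 1.06 on the log2 scale (SE 0.16, adjusted p = 0.000855). It also fell by 1.18 with 2DG in both media (SE 0.16, adjusted p = 0.000315), where E7+Activin A+2DG libraries had 1710 and 2065 and E7+2DG libraries 4294 and 4242. All calls named in this paragraph were kept in every alternative tried. ITGAV and ITGB1, the partners of ITGB5 and ITGA3, were called in none of the 14 contrasts. ITGA11, a subunit of a collagen receptor, was highest in Activin A media, at 29.6 and 34.4 normalised reads in E7+Activin A+2DG and 36.6 and 32.0 in E7+Activin A. The other 12 libraries had 0.98 to 12.7, where 1 read is worth 0.908 to 1.09.

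**Figure D3:**
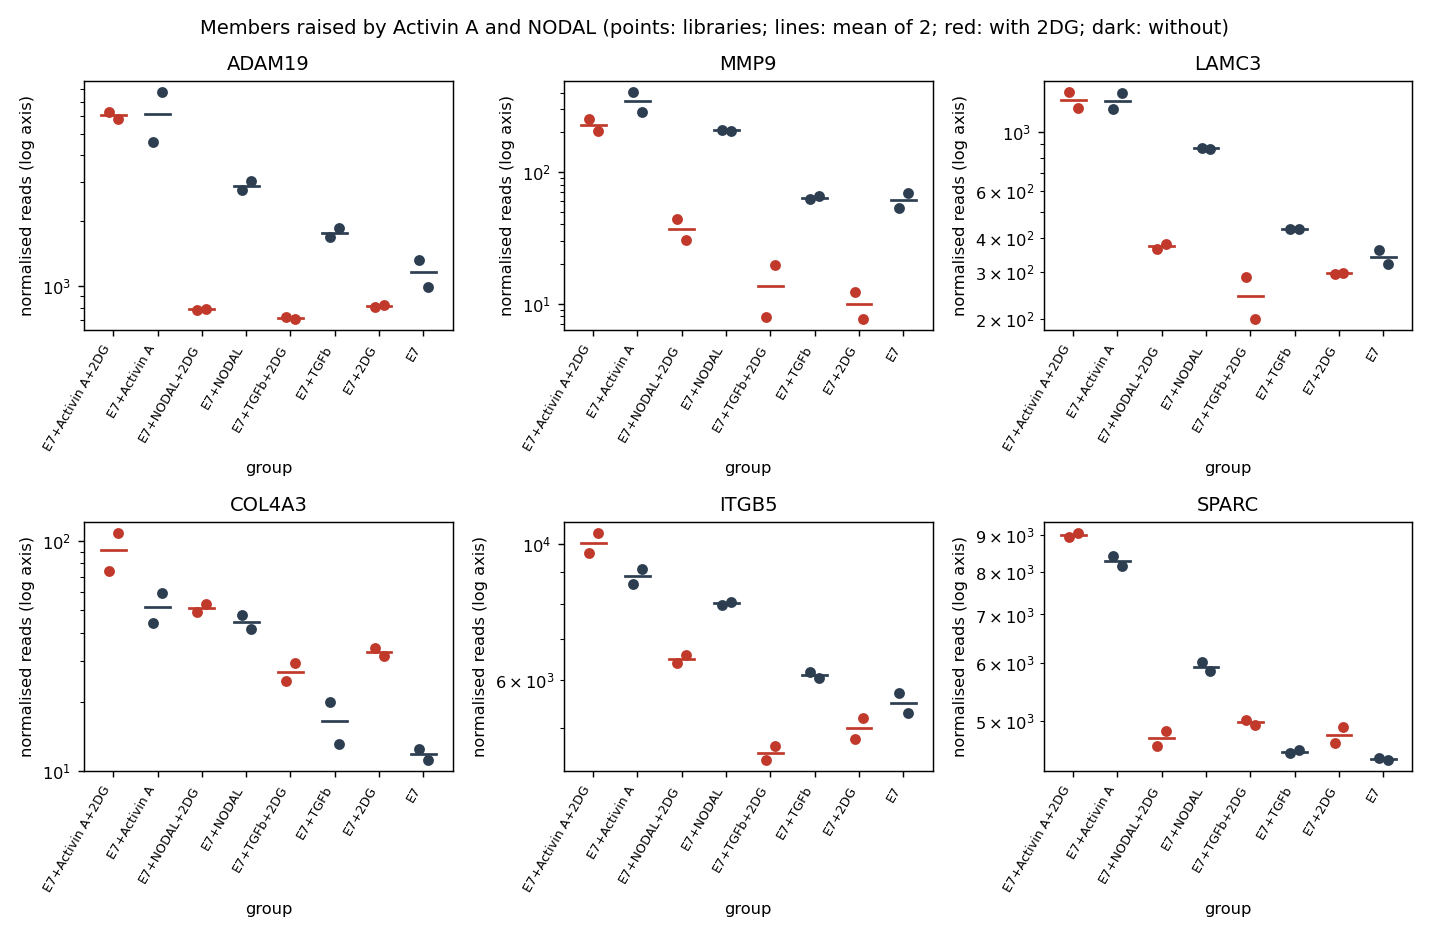
Normalised reads (log axis) of 6 members in 8 groups, with a point for each library, a line at the mean of 2, red for groups with 2DG and dark for those without. ADAM19, MMP9 and LAMC3 stay high in E7+Activin A+2DG but are low in the other groups with 2DG, and all 6 genes are higher in E7+Activin A and E7+NODAL than in E7.

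NODAL raised the collagen VI chains COL6A1 and COL6A2, collagen IV chains, perlecan, LAMA5, LAMC3, ADAM19, MMP9 and several integrin subunits. Among collagen IV chains, COL4A1 was not called and only the call of COL4A3 was kept in every alternative. Those of COL4A2, COL4A4, COL4A5 and COL4A6 were lost without E7 replicate 2. COL6A1, COL6A2, COL4A3 and COL4A4 also rose with Activin A, by 0.50, 0.76, 2.03 and 1.55, and the call of COL6A1 was lost there without E7 replicate 2 and with array weights. COL6A3 was called higher with NODAL as well, but in 14 of 29 alternatives the call was lost. In E7+NODAL against E7, 25 members rose and 2 fell, where 21.5% of all genes tested were called, 10.6% higher and 10.9% lower. Of the 35 collagens tested 13 rose, of 16 integrins 5 and of 10 laminins 3. The median log2 fold change of the 67 members was 0.41, against 0.01 over all genes tested and 0.13 over genes with more than 6 kilobases of exons. Scaling all libraries to the same total, which lifted the median of all genes by 0.13 in this contrast, gave 30 higher and 0 lower, and removing the length trend gave 28 and 6. Without E7 replicate 2, 12 of the 27 calls were lost.

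COL6A1 and COL6A2, which form collagen VI together with COL6A3, had 5823 and 5939 and 1683 and 1658 normalised reads in E7+NODAL, against 3185 and 2782 and 822 and 861 in E7. The log2 fold changes were 0.98 (SE 0.10, adjusted p = 0.000155) and 0.99 (SE 0.10, adjusted p = 0.000155). They lie near each other at chr21:45981737-46005050 and chr21:46098097-46132849 (GRCh38, GENCODE 29, plus strand). COL18A1, whose C-terminal fragment is endostatin, rose by 0.94 (SE 0.11, adjusted p = 0.000328), with 4115 and 4461 normalised reads, against 2374 and 2103. COL4A3, a collagen IV chain of kidney and lung basement membranes, had 47.5 and 41.5 in E7+NODAL and 44.1 and 59.3 in E7+Activin A, against 12.4 and 11.2 in E7. Its log2 fold changes were 1.83 (SE 0.27, adjusted p = 0.00102) for NODAL and 2.03 (SE 0.27, adjusted p = 0.000294) for Activin A, at levels where counting error is large. COL4A4, its neighbour and partner chain, rose too, by 1.29 with NODAL, a call lost without E7 replicate 2.

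HSPG2 had 1182 and 1349 normalised reads in E7+NODAL, against 399 and 202 in E7, with log2 fold change 2.15 (adjusted p = 0.00271, SE 0.38), and the call was kept without E7 replicate 2. It had 308 and 909 in E7+Activin A, libraries that lie on either side of one E7 library, with log2 fold change 0.89 (adjusted p = 0.172, SE 0.38). LAMA5 had 1072 and 1129 in E7+NODAL, against 545 and 441, with log2 fold change 1.16 (adjusted p = 0.00209, SE 0.20). ITGA5, the fibronectin receptor subunit, had 335 and 377, against 212 and 156, with log2 fold change 0.96 (adjusted p = 0.00202, SE 0.16). FN1 itself was not called, at 3715 and 4198 in E7+NODAL, against 3356 and 2264 in E7 (log2 fold change 0.52, SE 0.28, adjusted p = 0.195).

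With 2DG in both media, NODAL calls were few: ITGA2B, ITGA7 and MMP9 rose and ITGA6 fell, where 0.634% of all genes were called and 0.209% were lower. ITGA6 had 2423 and 2462 normalised reads in E7+NODAL+2DG, against 4294 and 4242 in E7+2DG. ADAM19 had 782 and 788 in E7+NODAL+2DG, against 802 and 824 in E7+2DG (log2 fold change -0.05, not called), although it was 2749 and 3023 in E7+NODAL, against 1322 and 996 in E7 (log2 fold change 1.33, SE 0.18, adjusted p = 0.00081). LAMC3 likewise had 366 and 381, against 296 and 298, with 2DG, and 872 and 860, against 363 and 321, without it. All 4 calls with 2DG were lost without E7+2DG replicate 1. The same total in every library gave 6 higher and 0 lower.

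No member was called with TGFb by limma, with or without 2DG, and 0% of all genes were called. The residual variance of this model is pooled over all groups, including E7+Activin A. Libraries of E7+Activin A differed by 57.8 times the counting variance, against 10.9 times in E7 and 1.61 times in E7+TGFb. Without 2DG, members were called when all Activin A libraries were left out or array weights were used, with counts given at the end. The main fit therefore does not show that TGFb left the members unchanged. At an unadjusted p under 0.05, 25 members passed without 2DG and 3 with it. DESeq2 called 5 members without 2DG and 0 with it, and edgeR 0 in both. ADAM19 had 1676 and 1846 normalised reads in E7+TGFb, against 1322 and 996 in E7 (log2 fold change 0.62, SE 0.18, adjusted p = 0.154). HSPG2 had 961 and 966, against 399 and 202 (log2 fold change 1.76, SE 0.38, adjusted p = 0.154). Leaving out the 2 libraries low in long transcripts leaves E7 replicate 1 alone in its group. The log2 fold changes of HSPG2, FN1, LAMA1, LAMC1 and ADAM19 with TGFb were then 1.27, 0.62, 0.56, 0.41 and 0.41. In the main fit, Spearman's rho between log2 fold change with TGFb and exon length was 0.417 over all genes and 0.468 over members. The part of length in these values was not tested. The TGFb dose was lower by mass than those of Activin A and NODAL, so the ligands were not compared with each other.

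Markers of other cell states moved with the same media. Of 9 mesendoderm markers 7 were in the table, and their summed level was 1050 to 1662 normalised reads in E7+Activin A+2DG, 1834 to 1930 in E7+Activin A, 196 to 255 in E7+NODAL+2DG, 638 to 675 in E7+NODAL, 154 to 183 in E7+TGFb+2DG, 293 to 311 in E7+TGFb, 147 to 160 in E7+2DG and 283 to 292 in E7. MIXL1 made up most of it in E7+Activin A, with a mean of 1425, against 158 in E7, and the brachyury gene, listed as T, had 1.09 to 43.3 over all libraries. MESP1 and HAND1 were not in the table. Markers of undifferentiated cells summed to 132300 to 138486 in E7+NODAL and 138115 to 157495 in E7+Activin A, against 159048 to 164525 in E7. They summed to 146953 to 147091 in E7+TGFb, 144447 to 150888 in E7+2DG and 151405 to 152162 in E7+TGFb+2DG. The sum was 145991 to 147685 in E7+NODAL+2DG and 135469 to 139638 in E7+Activin A+2DG. E7 was thus the highest group, and lower sums were not particular to NODAL and Activin A. Of these 8 markers 4 fell with NODAL, where 10.9% of all genes tested were lower, and 3 with Activin A, where 4.74% were.

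Of 7 endothelial markers 5 were in the table, without PECAM1 and CDH5, and KDR was the highest at 910 to 2694 normalised reads. In E7+2DG against E7, 1 of the 5 rose, where 14.6% of all genes tested were higher, and their median log2 fold change was -0.30. Their summed level was 2553 to 2794 in E7+2DG, against 1408 to 1737 in E7. It was also higher with 2DG in E7+TGFb (2578 to 2621, against 2006 to 2127) and in E7+NODAL (2389 to 2558, against 1918 to 2023), where none of the 5 was called, and in E7+Activin A the libraries overlapped. Of 12 fibroblast and stromal markers 6 were in the table, led by THY1 (1814 to 4030) and TAGLN (479 to 2800), without DCN, LUM, POSTN, TWIST1, PRRX1 and ACTA2, and their summed level was 3756 to 4848. Of 10 endoderm markers 6 were in the table, among them HHEX, CXCR4, GATA4 and FOXA2 but not SOX17 or GATA6, with a summed level of 223 to 286 in E7+Activin A, against 181 to 219 in E7. All 7 neuroectoderm markers were in the table, led by NES (6219 to 10827). Their summed level was 10773 to 12072 in E7+Activin A+2DG, 9767 to 10343 in E7+Activin A and 9536 to 9934 in E7+NODAL, against 8352 to 9093 in E7. Of 9 trophoblast and amnion markers 4 were in the table. Their summed level was 101 to 114 in E7+Activin A+2DG, 84.4 to 85.7 in E7+Activin A and 185 to 194 in E7+NODAL, against 221 to 239 in E7. The part of these markers' cells in the matrix gene results was not tested.

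The promoters of members that the results turn on were taken from RefSeq (GRCh38.p14), for the 250 bases before each start, and 51 of 68 members had an entry, with 67 promoters. Capitals mark matches, on either strand, to the SMAD box CAGAC, the GC-type SMAD motif GGCGCC or the cAMP response element TGACGTCA. The interval between COL4A1 and COL4A2 is shown because these chains of the same trimer start back to back. COL4A3 is shown for its responses to Activin A, NODAL and 2DG, and COL6A3 for its response to 2DG. The NODAL call of COL6A3 was lost in 14 of 29 alternatives. FN1 is shown for its response to 2DG in E7, and ADAM19 for its response to Activin A and NODAL.
COL4A1-COL4A2 interval, chr13:110307158-110307283, plus strand: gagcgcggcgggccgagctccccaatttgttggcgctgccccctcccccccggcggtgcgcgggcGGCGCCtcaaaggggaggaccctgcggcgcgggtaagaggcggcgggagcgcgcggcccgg
COL4A3, chr2:227164374-227164623, plus strand: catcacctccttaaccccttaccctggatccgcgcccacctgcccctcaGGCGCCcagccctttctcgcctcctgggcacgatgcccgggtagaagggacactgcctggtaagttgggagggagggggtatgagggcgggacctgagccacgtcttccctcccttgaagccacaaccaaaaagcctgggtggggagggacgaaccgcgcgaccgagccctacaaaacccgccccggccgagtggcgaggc
COL6A3, chr2:237414165-237414414, minus strand: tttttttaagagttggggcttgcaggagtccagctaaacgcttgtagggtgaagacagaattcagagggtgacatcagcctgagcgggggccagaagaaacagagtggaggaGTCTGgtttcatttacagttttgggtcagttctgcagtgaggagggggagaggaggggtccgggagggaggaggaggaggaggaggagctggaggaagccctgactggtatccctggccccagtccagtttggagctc
FN1, chr2:215436069-215436318, minus strand: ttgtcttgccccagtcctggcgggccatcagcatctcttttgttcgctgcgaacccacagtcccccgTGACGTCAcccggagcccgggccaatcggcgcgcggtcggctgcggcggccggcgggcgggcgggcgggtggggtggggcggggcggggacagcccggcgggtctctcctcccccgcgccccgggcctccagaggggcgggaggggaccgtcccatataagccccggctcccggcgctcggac
ADAM19, chr5:157575776-157576025, minus strand: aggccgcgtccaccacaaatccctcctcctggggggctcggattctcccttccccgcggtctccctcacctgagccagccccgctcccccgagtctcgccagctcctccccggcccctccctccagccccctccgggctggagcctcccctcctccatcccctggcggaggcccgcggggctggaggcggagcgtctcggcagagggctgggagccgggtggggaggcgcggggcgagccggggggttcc
CAGAC was found in 28 of 67 member promoters (41.8%), against 38.0% of all 35116 promoters, and GGCGCC in 18 (26.9%), against 16.4%. The AP-1 motif TGANTCA was found in 2 (2.99%), against 6.57%, and the ATF4 and CEBP element TGATGNAA in 2 (2.99%), against 3.14%. TGACGTCA was found in 1 member promoter (1.49%), that of FN1, against 1.65% of all. The ADAM19 window holds none of these letters. Motif matches describe sequence only.

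2DG divided the members. Laminin chains of the alpha5 and beta2 types, the laminin receptor subunit ITGA6 and COL6A3 were higher with 2DG, whereas MMP9, ADAM19, LAMC3 and the chains COL5A2, COL8A1 and COL22A1 were lower. In E7+2DG against E7, 20 members rose and 9 fell, or 43.3%, where 29.4% of all genes tested were called, 14.6% higher and 14.8% lower. Removing the length trend gave 17 higher and 18 lower, and without E7 replicate 2 16 of the 29 calls were lost. In E7+TGFb 5 rose and 8 fell, where 9.84% of all genes were called, 5.47% higher and 4.37% lower. In E7+NODAL 2 rose and 13 fell, where 5.88% were called, 3.11% higher and 2.76% lower. In E7+Activin A 3 rose and 1 fell, where 1.7% were called, 1.48% higher and 0.221% lower. Without E7+TGFb replicate 1, 6 of the 13 calls in E7+TGFb were lost, without E7+NODAL+2DG replicate 1, 9 of the 15 in E7+NODAL, and without E7+Activin A+2DG replicate 2 all 4 in E7+Activin A. Without the length trend there were 10 higher and 16 lower in E7+NODAL and 6 and 1 in E7+Activin A. Averaged over the 4 media, 21 rose and 16 fell, where 38.6% of all genes were called, and 17 and 20 without the length trend. The 4 comparisons share no libraries. In at least 2 of the 4 media 7 members rose, among them COL6A3, COL12A1, COL14A1, LAMA5, ITGA3 and ITGA6, where 4.87% of all genes did, and 9 fell, where 4.06% did. The E7+TGFb call of ITGA3 was lost in 14 of 29 alternatives, and the E7 call of COL12A1 without E7 replicate 2 or E7+2DG replicate 1. COL12A1 also lost its E7+Activin A call in 14 of 28 alternatives, and COL14A1 its E7+NODAL call without any one of the 4 libraries compared. In all 4 media 0 members rose and 0 fell, where 0.724% and 0.0598% of all genes did.

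COL6A3, the long chain of collagen VI, at chr2:237324003-237414375 (GRCh38, GENCODE 29, minus strand), had 308 and 290 normalised reads in E7+2DG, against 43.1 and 15.2 in E7. The log2 fold change was 3.49 (SE 0.48, adjusted p = 0.000573), the largest rise among members, and 2.77 without the 2 libraries low in long transcripts. In E7+TGFb+2DG it had 352 and 347, against 46.2 and 48.7 in E7+TGFb, with log2 fold change 2.86 (adjusted p = 0.0029, SE 0.48). In E7+Activin A+2DG it had 219 and 594, against 49.7 and 127, called at 2.17 but lost in 14 of 28 alternatives, and in E7+NODAL+2DG 163 and 161, against 71.8 and 82.0, not called. All 8 libraries with 2DG were above all 8 without it. The other chains of collagen VI moved less: COL6A1 rose by 0.33 in E7 (SE 0.10, adjusted p = 0.0227), a call lost without E7 replicate 2 or either library of E7+2DG, and was not called in the other media, and COL6A2 was called in none. Averaged over the 4 media their log2 fold changes with 2DG were 0.02 and -0.04, neither called.

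Laminin chains were among the members higher with 2DG. LAMA5, the alpha chain of the laminins on which human stem cells are often grown, had 1495 and 1572 normalised reads in E7+2DG, against 545 and 441 in E7. It rose by 1.64 (SE 0.20, adjusted p = 0.000304), and 1.49 without the 2 libraries low in long transcripts. It rose by 0.88 in E7+TGFb (SE 0.20, adjusted p = 0.0144), with 1506 and 1218 in E7+TGFb+2DG, against 757 and 712 in E7+TGFb, a call lost without either library of E7+TGFb or without E7+TGFb+2DG replicate 1. LAMB2 had 693 and 716 in E7+2DG, against 388 and 290 in E7, with log2 fold change 1.07 (adjusted p = 0.00654, SE 0.25), a call lost without E7 replicate 2. LAMA1, LAMB1 and LAMC1, which together form the first laminin described, were not called in E7. Of the 10 laminins, 4 rose and 0 fell in E7, where 14.6% of all genes were higher. Their median log2 fold change was 0.64, against -0.00 over all genes tested and 0.21 over genes with more than 6 kilobases of exons.

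ITGA6 had 4294 and 4242 normalised reads in E7+2DG, against 2577 and 2426 in E7, with log2 fold change 0.77 (adjusted p = 0.00411, SE 0.16). In E7+TGFb+2DG it had 4258 and 4542, against 2845 and 2932, with log2 fold change 0.61 (adjusted p = 0.0316, SE 0.16), a call lost without any one of these 4 libraries. In E7+Activin A it was 0.65 (adjusted p = 0.0629) and in E7+NODAL 0.43 (adjusted p = 0.141), neither called, and in each of the 4 media both libraries with 2DG were above both without it. ITGA3 rose by 0.59 in E7, a call lost when the length trend was removed (0.35, adjusted p = 0.0516). ITGB1 was not called, with 9432 and 9098 in E7+2DG, against 11446 and 10184 in E7 (log2 fold change -0.22, SE 0.12, adjusted p = 0.189).

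FN1 had 7577 and 6619 normalised reads in E7+2DG, against 3356 and 2264 in E7, with log2 fold change 1.36 (adjusted p = 0.00348, SE 0.28). The call was lost without E7 replicate 2. Without both libraries low in long transcripts, which leaves E7 replicate 1 alone in its group, the log2 fold change was 1.08. In E7+TGFb, E7+Activin A and E7+NODAL its log2 fold changes were 0.39, 0.76 and 0.29, none called. HSPG2 had 1220 and 828 in E7+2DG, against 399 and 202 (log2 fold change 1.82, SE 0.38, adjusted p = 0.00433). This call was also lost without E7 replicate 2, and without E7+2DG replicate 1. The HSPG2 value without both libraries low in long transcripts was 1.33, again with E7 replicate 1 alone in its group. It had 920 and 962 in E7+NODAL+2DG, against 1182 and 1349 in E7+NODAL (log2 fold change -0.42, not called). COL4A1 and COL4A2 were called with 2DG in no medium.

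**Figure D4:**
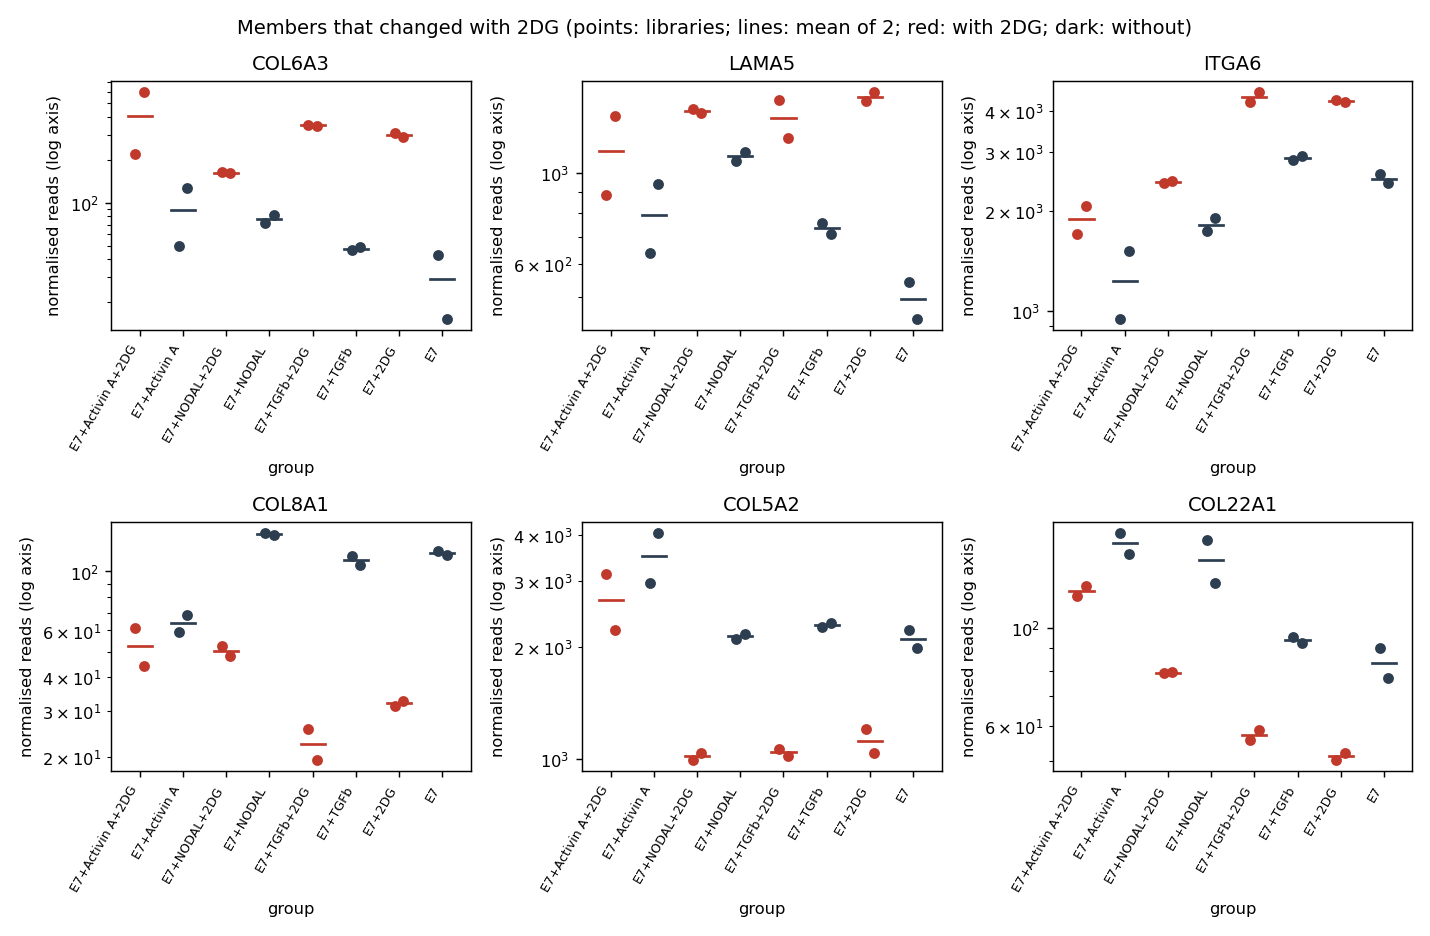
Normalised reads (log axis) of 6 members in 8 groups, with a point for each library, a line at the mean of 2, red for groups with 2DG and dark for those without. In each medium both COL6A3 libraries with 2DG are above both without it. COL8A1, COL5A2 and COL22A1 are lower with 2DG in E7+NODAL, E7+TGFb and E7, and in E7+Activin A the libraries of COL8A1 and COL5A2 overlap.

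MMP9, COL8A1, COL5A2 and COL22A1 fell with 2DG in E7, E7+TGFb and E7+NODAL and were not called in E7+Activin A. These were 4 of 67 members, where 0.963% of all genes tested had this pattern. MMP9 had 12.3 and 7.61 normalised reads in E7+2DG, against 53.6 and 69.0 in E7, 7.84 and 19.6 in E7+TGFb+2DG, against 61.9 and 65.6 in E7+TGFb, and 43.6 and 30.4 in E7+NODAL+2DG, against 210 and 204 in E7+NODAL. The log2 fold changes were -2.53, -2.26 and -2.48 (SE 0.35 each, adjusted p = 0.000517, 0.00151 and 0.00136). MMP9 in E7+Activin A+2DG had 254 and 205, against 403 and 288 in E7+Activin A (log2 fold change -0.58, adjusted p = 0.358).

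COL8A1, a short-chain network collagen, had 31.3 and 32.6 normalised reads in E7+2DG, against 120 and 116 in E7, with log2 fold change -1.85 (adjusted p = 0.000188, SE 0.20). It had 25.5 and 19.6 in E7+TGFb+2DG, against 114 and 106 in E7+TGFb (-2.25, adjusted p = 3.73e-05), and 52.7 and 48.2 in E7+NODAL+2DG, against 139 and 138 in E7+NODAL (-1.44, adjusted p = 0.00136). It had 61.1 and 44.1 in E7+Activin A+2DG, against 59.1 and 68.7 in E7+Activin A, libraries that overlap. COL5A2, the alpha2 chain of fibril-regulating collagen V, had 1200 and 1036 in E7+2DG, against 2220 and 1986 in E7, with log2 fold change -0.91 (adjusted p = 0.00149, SE 0.16). It fell by 1.14 in E7+TGFb and by 1.07 in E7+NODAL. COL5A1, its partner chain, had a log2 fold change of 0.77 in E7, a call lost without E7 replicate 2 or E7+2DG replicate 1. The lowest value of COL5A1 over all alternatives was 0.46, and it was not called in the other media. These calls of MMP9, COL8A1 and COL5A2 were kept in every alternative, whereas COL22A1, at 50.3 to 79.6 normalised reads with 2DG in the same media, lost its calls in E7+TGFb and E7+NODAL without single libraries of those media.

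The interaction of 2DG with Activin A, the direct test of whether the response differed from that in E7, called none of the 67 members, where 0.0419% of all genes were called. At an unadjusted p under 0.05, 15 members passed; edgeR called 0 and DESeq2 called 2, COL8A1 and MMP9. The interaction term of COL8A1 was 1.56 (SE 0.29, adjusted p = 0.109) and that of MMP9 1.95 (SE 0.49, adjusted p = 0.288). The interaction with TGFb called 0 members and 0% of genes, with 17 members at an unadjusted p under 0.05 and 0 by edgeR and by DESeq2. The interaction with NODAL called 6 members, all lower, where 1.87% of all genes were called. They were ADAM19, LAMA5, ITGA5, LAMC3, ITGA3 and COL18A1. All 6 calls were lost without E7 replicate 2, and each was lost in at least 12 of 29 alternatives.

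ADAM19 and LAMC3 fell with 2DG in E7+TGFb and E7+NODAL. ADAM19 had 725 and 708 normalised reads in E7+TGFb+2DG, against 1676 and 1846 in E7+TGFb (log2 fold change -1.29, SE 0.18, adjusted p = 0.00101), and fell by 1.88 in E7+NODAL (SE 0.18, adjusted p = 0.00012). In E7+Activin A the log2 fold change was 0.03 (adjusted p = 0.947) and in E7 -0.50 (adjusted p = 0.0574). LAMC3 fell by 0.86 in E7+TGFb (SE 0.15, adjusted p = 0.00301) and by 1.21 in E7+NODAL (SE 0.15, adjusted p = 0.000519). ITGB5 fell by 0.42 in E7+TGFb (SE 0.08, adjusted p = 0.00682), a call lost without either library of E7+TGFb or without E7+TGFb+2DG replicate 1. In E7+NODAL 2DG also lowered members that it did not lower elsewhere at the threshold. COL2A1, a fibrillar collagen of cartilage, had 75.4 and 72.2 in E7+NODAL+2DG, against 152 and 155 in E7+NODAL (log2 fold change -1.05, SE 0.17, adjusted p = 0.00329). ITGA5 had 214 and 232, against 335 and 377, and fell by 0.67 (SE 0.16, adjusted p = 0.0302). SPARC fell by 0.33 and LAMB1 by 0.62. These calls of ITGA5, SPARC and LAMB1 were lost without any one of the 4 libraries compared. In E7 the log2 fold change of ITGA5 was 0.47 (SE 0.16, adjusted p = 0.0455), a call lost in 16 of 29 alternatives, edgeR, DESeq2, removal of the length trend and leaving out E7 replicate 2 among them, with a lowest value of 0.25. Of 8 fibrillar collagens, 4 fell and 0 rose in E7+NODAL, where 2.76% of all genes were lower and 3.11% higher. Of these calls, that of COL1A2 was lost in 6 of 29 alternatives and that of COL11A2 in 9 of 28. Both were lost without any one of the 4 libraries compared.

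**Figure D5:**
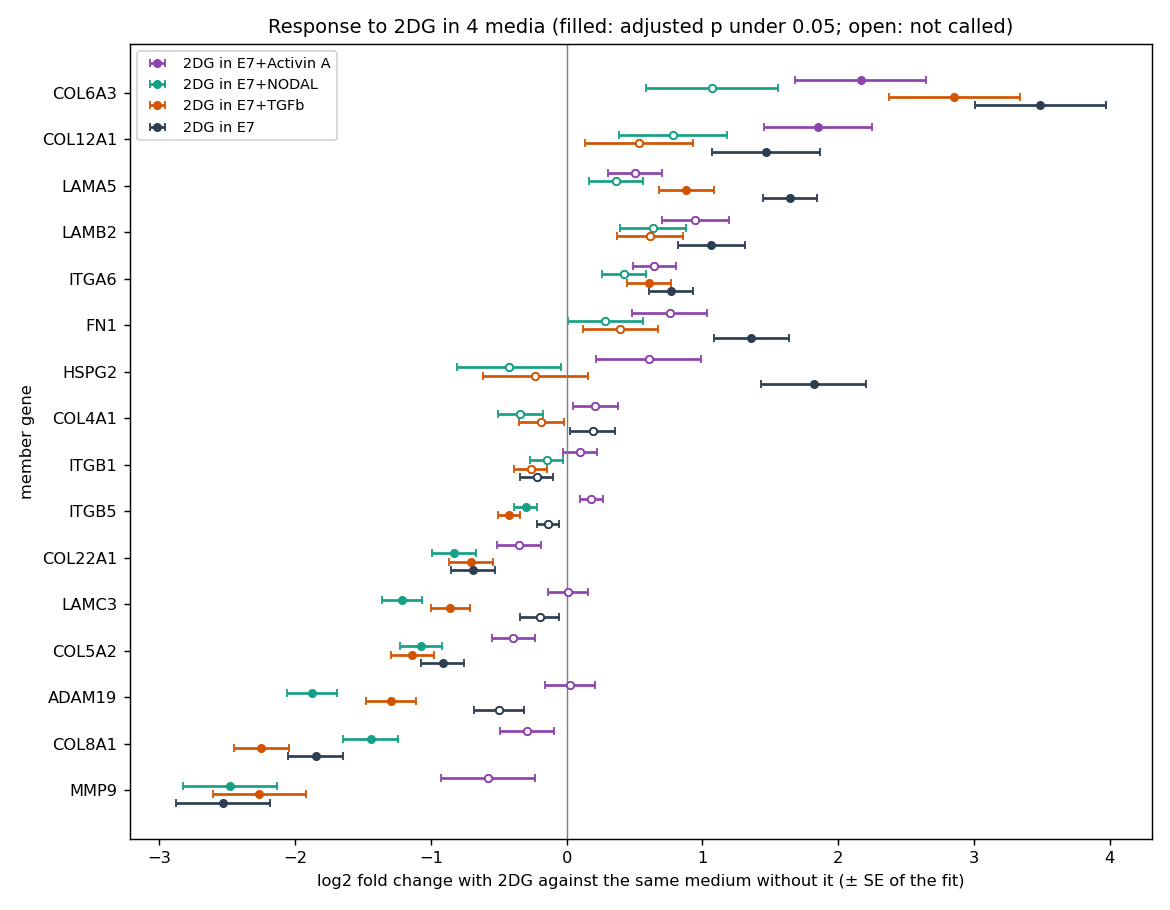
Log2 fold change with 2DG against the same medium without it (horizontal axis, bars are the SE of the model) for 16 members in 4 media, filled where called and open where not. Points of COL6A3 lie right of 0 in all media, at 1.07 to 3.49. Points of MMP9 lie left of 0, at -2.53 to -2.26 in E7, E7+TGFb and E7+NODAL and at -0.58 in E7+Activin A.

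Genes that modify, assemble or cleave matrix were counted beside the members. Of 26 genes tested for collagen maturation and crosslinking, 10 rose and 2 fell with 2DG in E7, 7 and 1 in E7+TGFb, 3 and 4 in E7+NODAL and 2 and 0 in E7+Activin A. Over all genes the shares higher and lower were 14.6% and 14.8%, 5.47% and 4.37%, 3.11% and 2.76%, and 1.48% and 0.221% in the same order. P3H2, a prolyl 3-hydroxylase, rose in all 4 media, by 1.23, 1.31, 0.76 and 0.93 in that order. Averages of P4HB, the beta subunit of prolyl 4-hydroxylase, were 6757 in E7+2DG, against 4455 in E7. Among 31 proteases and inhibitors, MMP24, a membrane-type metalloproteinase, rose in all 4 media, by 2.08, 1.43, 1.24 and 2.12, and PLAT, tissue plasminogen activator, fell in the first 3, by 1.65, 1.53 and 1.66. Of 37 other basement membrane and matrix genes, 9 rose and 5 fell in E7, where 29.4% of all genes were called. Of 28 integrin adaptors and kinases, 12 rose and 3 fell in that comparison, and 0 were called in E7+Activin A, where 1.7% of all genes were. CAV1, the caveolin-1 gene, fell by 0.96, 1.08 and 0.82 in E7, E7+TGFb and E7+NODAL and rose by 1.00 with Activin A in E7.

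Of the 67 members, 17 were called in none of the 14 contrasts, among them ITGB1, ITGAV, COL4A1, COL1A1, LAMA1 and LAMC1, although 45.3% of all genes were also called in none. ITGB1 ranged from 8771 to 12474 normalised reads over the 16 libraries.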

How the data were processed

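The deposited table holds a signal per gene and library, which the authors made by dividing read counts by a size factor: every value is a whole multiple of the value of 1 read (100% within 1e-06), and the divisors equal median-of-ratios factors. Per the submitters' processing notes, Trimmomatic 0.36, STAR, featureCounts 1.5.3, DESeq2 1.26.0 and hg38 were used; the strand setting is not given in the sources used here. Reads of ADAM19, MMP9, COL4A3, LAMA5, LAMB1, ITGA6 and COL18A1 overlap those of an opposite-strand gene and are uncertain. The same holds for ITGA7, ITGA9, ITGB8, COL9A3 and ITGB3BP.

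Genes at 10 or more in at least 2 libraries were kept, log2(value + 1) was fitted with limma-trend 3.58.1 (R 4.3.3) as 8 group means over all 16 libraries, and p-values were adjusted by Benjamini-Hochberg over 16714 genes in each of 14 contrasts (8 residual degrees of freedom). The procedure was tested on simulated data. Alternatives were count tests on the recovered reads with DESeq2 1.42.0 or edgeR 4.0.16, other scalings, pseudocounts of 0.5 and 8, a mean minimum of 50, array weights, a replicate block and leaving out each library. Removing the length trend, leaving out the 2 libraries low in long transcripts and the cAMP response element motif were chosen after seeing the data. Exon lengths and coordinates are from GENCODE 29.

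Members and lists were chosen with earlier results of these data known. Full statistics were given, per contrast, for called members with the largest changes, up to 8 in each direction, whose higher group averaged at least 100, for 15 structural and receptor genes in any contrast, and for up to 3 called genes of each other list; COL4A3 and ITGA11 fall below that level and were chosen after their values were seen, as were other members and list genes named outside this rule. Replicate numbers were not used to pair the samples, because the labels do not say what a replicate number shares. Deviations correlated above 0.1 in 3 of 28 pairs of groups, with values from -0.393 to 0.242, which cannot exclude pairing. The values of 1 member are not reported here, although it is included in the counts.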

Additional observations from a re-analysis of the deposited data

Results flagged for a closer look

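Each of these 6 members had a response to 2DG in E7+NODAL that differed from its response in E7 by a test of the difference itself (limma, Benjamini-Hochberg adjustment). The difference, the response in E7+NODAL less that in E7 on the log2 scale, was -1.38 for ADAM19 (SE 0.26, adjusted p = 0.0383), -1.28 for LAMA5 (SE 0.28, adjusted p = 0.0451), -1.14 for ITGA5 (SE 0.23, adjusted p = 0.0383), -1.01 for LAMC3 (SE 0.21, adjusted p = 0.0383), -0.80 for ITGA3 (SE 0.14, adjusted p = 0.0383) and -0.72 for COL18A1 (SE 0.15, adjusted p = 0.0443). Each of the 6 calls was lost in at least 12 of 29 alternatives. All were lost without E7 replicate 2 and with a replicate block. They were also lost without any single library of E7+2DG, E7+TGFb, E7+TGFb+2DG, E7+NODAL or E7+NODAL+2DG. Of all genes, 1.87% were called, and Spearman's rho between this difference and exon length over all genes was -0.378.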

How the results depend on the processing

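No called member's log2 fold change changed sign under the alternatives run, but without the length trend the members called with 2DG in E7 were 17 higher and 18 lower, against 20 and 9 with it, and averaged over the media 17 and 20, against 21 and 16. Calls kept in every alternative numbered 11 of 29 for 2DG in E7, 7 of 13 in E7+TGFb, 6 of 15 in E7+NODAL, 0 of 4 in E7+Activin A, 10 of 23 for Activin A and 15 of 27 for NODAL without 2DG, and 14 of 20 for Activin A and 0 of 4 for NODAL with 2DG. With array weights the members called were 38 for 2DG in E7+TGFb, 0 in E7+Activin A, 39 in E7+NODAL, 21 for TGFb and 13 for Activin A without 2DG, 23 for NODAL with 2DG, and 12 and 28 for the interactions of 2DG with TGFb and NODAL. Without the 4 Activin A libraries they were 45 for 2DG in E7, 26 in E7+TGFb, 34 in E7+NODAL, 28 for TGFb without 2DG, 23 for NODAL with 2DG, and 20 and 30 for the interactions with TGFb and NODAL. DESeq2 called 8 for 2DG in E7+Activin A, 5 for TGFb without 2DG, 9 for NODAL with 2DG, and 2 and 16 for the interactions with Activin A and NODAL. Removing the length trend gave 7 for 2DG in E7+Activin A, 26 in E7+NODAL, 11 for NODAL with 2DG, and 1 and 11 for the interactions with Activin A and NODAL. Without the 2 libraries low in long transcripts the counts were 24 for 2DG in E7+TGFb, 30 in E7+NODAL, 5 for TGFb without 2DG, 32 for Activin A and 24 for NODAL with 2DG, and 3, 8 and 19 for the interactions with TGFb, Activin A and NODAL. The interaction with NODAL gave 10 with the same total in every library, 13 with a mean minimum of 50 and 0 with a replicate block, and the block moved no other count by over 1.5 times. Leaving out each library gave 13 (without E7 replicate 2) to 43 for 2DG in E7, 7 (E7+TGFb replicate 1) to 18 in E7+TGFb, 0 (E7+Activin A+2DG replicate 2) to 32 (E7+Activin A replicate 2) in E7+Activin A, 6 (E7+NODAL+2DG replicate 1) to 27 in E7+NODAL and 33 to 44 averaged. It gave 0 to 21 for TGFb, 11 to 36 for Activin A and 15 to 37 for NODAL without 2DG (both Activin A and NODAL lowest without E7 replicate 2). It gave 0 to 0, 14 (E7+2DG replicate 2) to 28 and 0 (E7+2DG replicate 1) to 17 for TGFb, Activin A and NODAL with 2DG, and 0 to 11, 0 to 16 and 0 (E7 replicate 2) to 27 for the interactions with TGFb, Activin A and NODAL. The highest counts came without E7+Activin A replicate 1, except those for 2DG in E7+Activin A and averaged, which came without its replicate 2, and the count of 0 for TGFb with 2DG. The causes were not tested. At this depth 20 members averaged under 100 normalised reads, and the smallest detectable change was not tested.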
